A study of Zea mays with 18 samples.

Results

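Transcripts of 6 genes assigned to the maize glutamine synthetase family were followed in seedling roots of 3 genotypes at 2 nitrate levels. The members were chosen by identifier from a list of 1 plastid gene, GS2 (Zm00001d026501), and 5 cytosolic GS1 genes (Zm00001d028260, Zm00001d017958, Zm00001d051804, Zm00001d048050 and Zm00001d033747), out of 41632 genes in the deposited tables. The files hold identifiers only, so the assignment to GS1 and GS2 comes from that list and could not be checked against sequence here, and positions in the genome are not given. All 6 genes passed the filter on low counts, which left 27134 genes for testing.

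Glutamine synthetase joins ammonium to glutamate and so makes glutamine, the step by which inorganic nitrogen enters amino acids. In plants the plastid form works beside nitrite reductase, which delivers ammonium from the reduction of nitrate, and it also recovers ammonium from photorespiration in leaves. The cytosolic forms are encoded by a small gene family whose members differ in tissue and in regulation, and they assimilate ammonium in roots and move nitrogen between organs.

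The seedlings were 10 days old when they were placed for 48 h in Hoagland solution with 0.15 mM nitrate (low) or 15 mM nitrate (high), and RNA was taken from whole roots. The genotypes were the inbred B73, zmnrl1-m, labelled a mutant of ZmNRL1, and ZmNRL1-OE, labelled an overexpression line, with 3 libraries in each of the 6 groups. ZmNRL1 is named in the series title as a protein with DUF630 and DUF632 domains and a regulator of the nitrogen stress response. The labels do not state the allele of the mutant, the promoter of the overexpression line, whether either is a single line or event, or the parent inbred in which either was made. The libraries held 21905877 to 39003607 counts, and the labels do not say that repeats were separate plantings, so p-values here measure only the spread over these libraries, which may be technical.

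Against the B73 genome build, 44 genes that averaged 5 CPM or more in B73 had no count in any zmnrl1-m library, and 22 such genes had none in ZmNRL1-OE. In the other direction, 21 genes at that level in zmnrl1-m and 28 in ZmNRL1-OE had no count in any B73 library. CPM is a gene's count relative to its library total, scaled by TMM, the trimmed mean of M-values. In a difference between a line and B73, ZmNRL1 and the rest of the genome of the line cannot be told apart. ZmNRL1 itself could not be matched to an identifier and is not reported.

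Per unit of gene length, the family in these roots was led by a single GS1 gene. Zm00001d028260 stood at 1228 ± 218 FPKM in B73 at high nitrate (SD, n = 3, as for all values given with ±), and over all 18 libraries its mean of 1007 FPKM ranked 16 among the 41632 genes. FPKM is the authors' count relative to the length of the gene and the size of the library, and it is used wherever levels of different genes are set side by side. Zm00001d017958 and Zm00001d051804 came next in B73 at high nitrate, with 264.6 ± 27.5 and 126.9 ± 6.17 FPKM. GS2 stood at 24.7 ± 1.67 FPKM, Zm00001d048050 at 26.5 ± 3.63 FPKM and Zm00001d033747 at 16.5 ± 2.53 FPKM. The libraries of GS2 and Zm00001d048050 overlapped, and no other neighbours in this order did.

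The order of the genes was not the same in every group. At low nitrate in B73 the order from the top remained Zm00001d028260, Zm00001d017958 (441.7 ± 54.8 FPKM), Zm00001d051804 (301.7 ± 22.7 FPKM) and Zm00001d048050 (43.5 ± 7.89 FPKM), and GS2, at 9.93 ± 1.5 FPKM, overlapped Zm00001d033747, at 11.2 ± 3.48 FPKM. In ZmNRL1-OE at low nitrate Zm00001d051804 reached 435.2 ± 8.66 FPKM and stood above Zm00001d017958, at 393.4 ± 9.46 FPKM, without overlap of their libraries. In the other 5 groups Zm00001d017958 was above Zm00001d051804. In zmnrl1-m and ZmNRL1-OE, Zm00001d048050 was above GS2 in all libraries at either nitrate level.

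**Figure D1:**
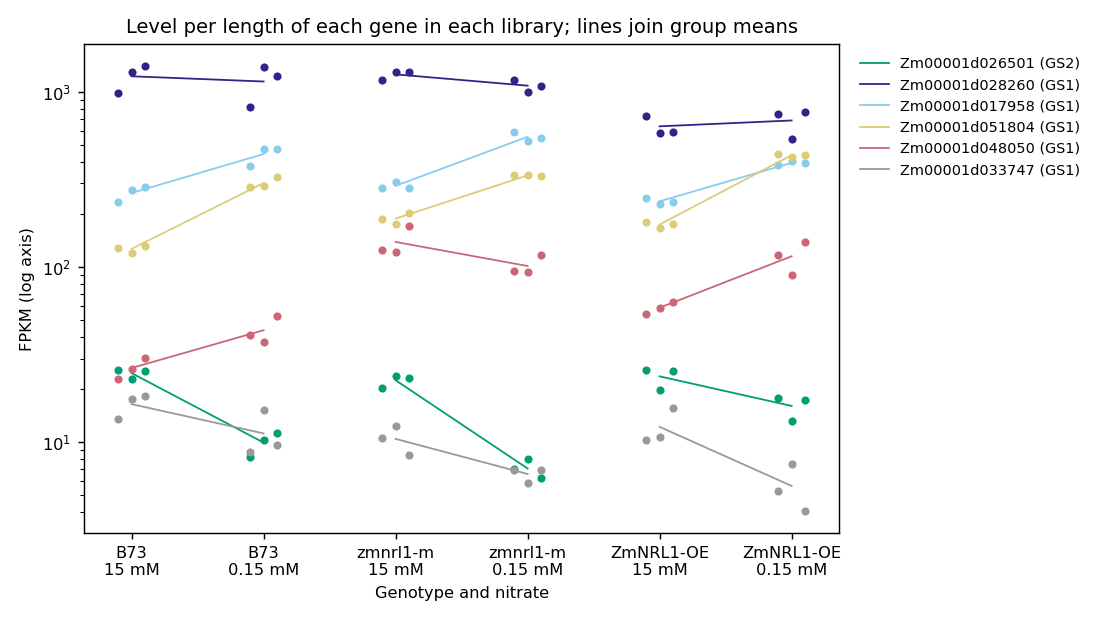
FPKM on a log axis for the 6 genes in each of the 18 libraries, grouped by genotype and nitrate concentration, with lines between the group means of a genotype. Zm00001d028260 is the top line in every group, the lines of Zm00001d017958 and Zm00001d051804 cross in ZmNRL1-OE, and GS2 and Zm00001d033747 lie lowest at 0.15 mM nitrate.

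The place of GS2 in this order depends on the length used. The deposited FPKM imply a length of 6001 bases for GS2 and of 1497 to 1965 bases for the 5 GS1 genes, so a GS2 read counts for less FPKM than a GS1 read. In raw counts GS2 held 5.43% ± 1.03 of the family's reads in B73 at high nitrate, against 1.495% ± 0.302 of its summed FPKM. Changes of a gene between groups do not depend on this length.

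The dominant gene lost share at low nitrate in each genotype. In B73, Zm00001d028260 held 72.5% ± 2.37 of the summed FPKM of the 6 genes at high and 58.1% ± 4.77 at low nitrate. The same share was 65.9% ± 1.09 and 51.9% ± 1.12 in zmnrl1-m, and 55.5% ± 2.69 and 41.3% ± 4.18 in ZmNRL1-OE. Zm00001d051804 gained share, from 7.65% ± 1.31 to 15.8% ± 2.75 in B73, from 9.90% ± 0.720 to 16.0% ± 0.938 in zmnrl1-m and from 15.3% ± 0.797 to 26.5% ± 2.12 in ZmNRL1-OE. GS2 held at most 2.08% ± 0.233 of the summed FPKM, in ZmNRL1-OE at high nitrate. Shares of a fixed sum are tied to each other, and no test was made on them.

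**Figure D2:**
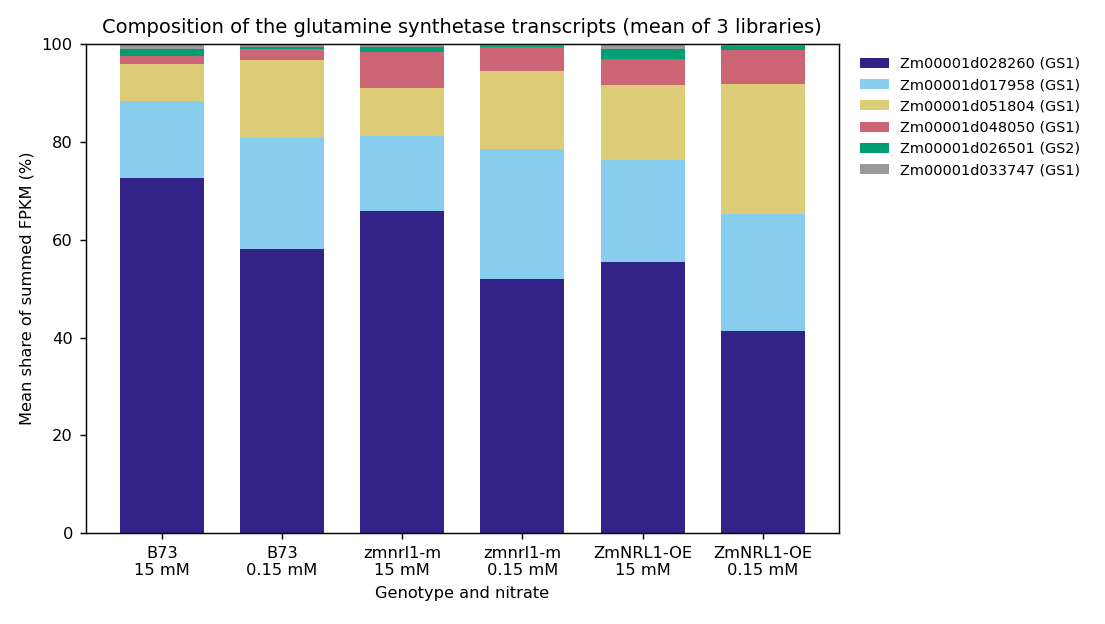
Mean share of the summed FPKM of the 6 genes, in percent, in each group of 3 libraries. The segment of Zm00001d028260 shrinks from 72.5% to 58.1% in B73, from 65.9% to 51.9% in zmnrl1-m and from 55.5% to 41.3% in ZmNRL1-OE between 15 mM and 0.15 mM nitrate.

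The summed FPKM of the 6 genes was 1687 ± 251 at high and 1954 ± 361 at low nitrate in B73, and 1911 ± 100 and 2087 ± 115 in zmnrl1-m, with overlap between the nitrate levels in both genotypes. In ZmNRL1-OE it was 1142 ± 96.5 at high nitrate, below every library of B73 and zmnrl1-m, and 1652 ± 150 at low nitrate, with no overlap between the nitrate levels.

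GS2, the plastid enzyme, was lower at low nitrate in all 3 genotypes. The B73 libraries gave 156, 141 and 157 CPM with high and 48.8, 63.5 and 67.5 CPM with low nitrate. In zmnrl1-m they gave 125, 148 and 143 CPM with high and 43.5, 47.9 and 39.1 CPM with low nitrate, and in ZmNRL1-OE 154, 115 and 149 CPM with high and 102, 73.8 and 98.7 CPM with low nitrate. High- and low-nitrate libraries did not overlap in any genotype, and the low-nitrate libraries of ZmNRL1-OE were all above those of B73 and zmnrl1-m. GS2 fell 2.52-fold in B73, 3.19-fold in zmnrl1-m and 1.52-fold in ZmNRL1-OE, which as log2 fold changes is -1.33 ± 0.14, -1.67 ± 0.15 and -0.61 ± 0.14 (SE). The p of edgeR's quasi-likelihood test, adjusted over the 27134 genes after Benjamini and Hochberg, were 1.70e-05, 1.31e-06 and 0.00667. In whole roots, fewer cells of a type and less RNA per cell cannot be told apart.

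Zm00001d051804, a cytosolic form, rose at low nitrate in every genotype and varied little between repeats. In B73 it went from 206, 197 and 216 CPM at high nitrate to 450, 476 and 526 CPM at low nitrate. The zmnrl1-m libraries gave 305, 291 and 332 CPM with high and 555, 537 and 552 CPM with low nitrate, and those of ZmNRL1-OE 287, 259 and 274 CPM with high and 681, 635 and 661 CPM with low nitrate. All 9 low-nitrate libraries were above all 9 high-nitrate libraries, whatever the genotype. The rise was 2.34-fold in B73, 1.77-fold in zmnrl1-m and 2.41-fold in ZmNRL1-OE, or 1.23 ± 0.08, 0.82 ± 0.08 and 1.27 ± 0.08 on the log2 scale (SE; edgeR adjusted p = 9.15e-08, 3.55e-06 and 7.27e-08).

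Zm00001d017958, the GS1 gene with the second-highest mean FPKM, also rose in each genotype. Its B73 libraries had 459, 554 and 577 CPM with high and 731, 955 and 932 CPM with low nitrate. In zmnrl1-m the values were 571, 619 and 567 CPM with high and 1206, 1037 and 1118 CPM with low nitrate, and in ZmNRL1-OE 486, 435 and 449 CPM with high and 724, 737 and 737 CPM with low nitrate. No genotype had overlap between nitrate levels, and the low-nitrate libraries of zmnrl1-m were the highest of all. On the log2 scale B73 rose by 0.72 ± 0.11, zmnrl1-m by 0.94 ± 0.11 and ZmNRL1-OE by 0.68 ± 0.11 (SE), which is 1.65-, 1.91- and 1.60-fold (edgeR adjusted p = 0.000438, 2.62e-05 and 0.000509).

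Zm00001d048050 was the GS1 gene whose fitted nitrate response had opposite signs in different genotypes without overlap of the libraries. It stood at 35.3, 41.4 and 47.7 CPM with high and 61.4, 59.1 and 80.9 CPM with low nitrate in B73, and at 81.9, 87.3 and 94.8 CPM with high and 172, 129 and 203 CPM with low nitrate in ZmNRL1-OE. In zmnrl1-m the high-nitrate libraries had 195, 193 and 268 CPM and the low-nitrate libraries 151, 143 and 187 CPM. The libraries did not overlap between nitrate levels in any genotype, and low nitrate was the higher level in B73 and ZmNRL1-OE and the lower level in zmnrl1-m. The gene rose 1.62-fold in B73 and 1.91-fold in ZmNRL1-OE, or on the log2 scale by 0.69 ± 0.18 and 0.93 ± 0.18 (SE; edgeR adjusted p = 0.0157 and 0.00161), while the log2 fold change of -0.45 ± 0.17 in zmnrl1-m did not pass (edgeR adjusted p = 0.0864). The call in B73 was lost in edgeR without low-nitrate replicate 3 of B73 (adjusted p = 0.0883). It was also lost without high-nitrate replicate 1 or 2 of B73 (0.0591 and 0.0545). With the replicate number as a block in edgeR, the B73 call was kept (adjusted p = 0.000635). The difference in zmnrl1-m was then called as well (0.00846). Without high-nitrate replicate 3 of zmnrl1-m that difference was -0.28 and not called (edgeR adjusted p = 0.35).

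The dominant gene Zm00001d028260 was not called for nitrate in any genotype. The B73 libraries ran from 1471 to 2156 CPM with high and from 1205 to 2127 CPM with low nitrate, and in both cases replicate 1 was the lowest. The ranges were 1790 to 2020 and 1503 to 1819 CPM in zmnrl1-m, and 849 to 1092 and 754 to 1097 CPM in ZmNRL1-OE. High- and low-nitrate libraries overlapped in each genotype. Log2 fold changes of -0.12 in B73, -0.21 in zmnrl1-m and 0.06 in the overexpression line had 95% intervals of -0.54 to 0.30, -0.63 to 0.21 and -0.36 to 0.49 (edgeR adjusted p = 0.739, 0.515 and 0.857). A missed threshold does not show that its level was the same.

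Zm00001d033747, the GS1 gene with the lowest mean FPKM, was called lower at low nitrate in ZmNRL1-OE. There it fell 2.26-fold, from 21.1 ± 5.09 to 9.36 ± 2.82 CPM, with a log2 fold change of -1.18 ± 0.25 (SE; edgeR adjusted p = 0.00343). In B73 it stood at 29.6 ± 4.97 CPM with high and 19.9 ± 6.61 CPM with low nitrate, with overlap, and in zmnrl1-m at 18.9 ± 3.58 and 11.9 ± 1.40 CPM, without. The log2 fold changes in B73 and zmnrl1-m were -0.57 ± 0.24 and -0.67 ± 0.25 (SE) and were not called (edgeR adjusted p = 0.120 and 0.0719). That of B73 was -0.88 without low-nitrate replicate 2 of B73 and was then called (adjusted p = 0.0347). That of zmnrl1-m was called by DESeq2 (adjusted p = 0.0390) and by edgeR with only its 2 groups in the fit (0.0268).

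**Figure D3:**
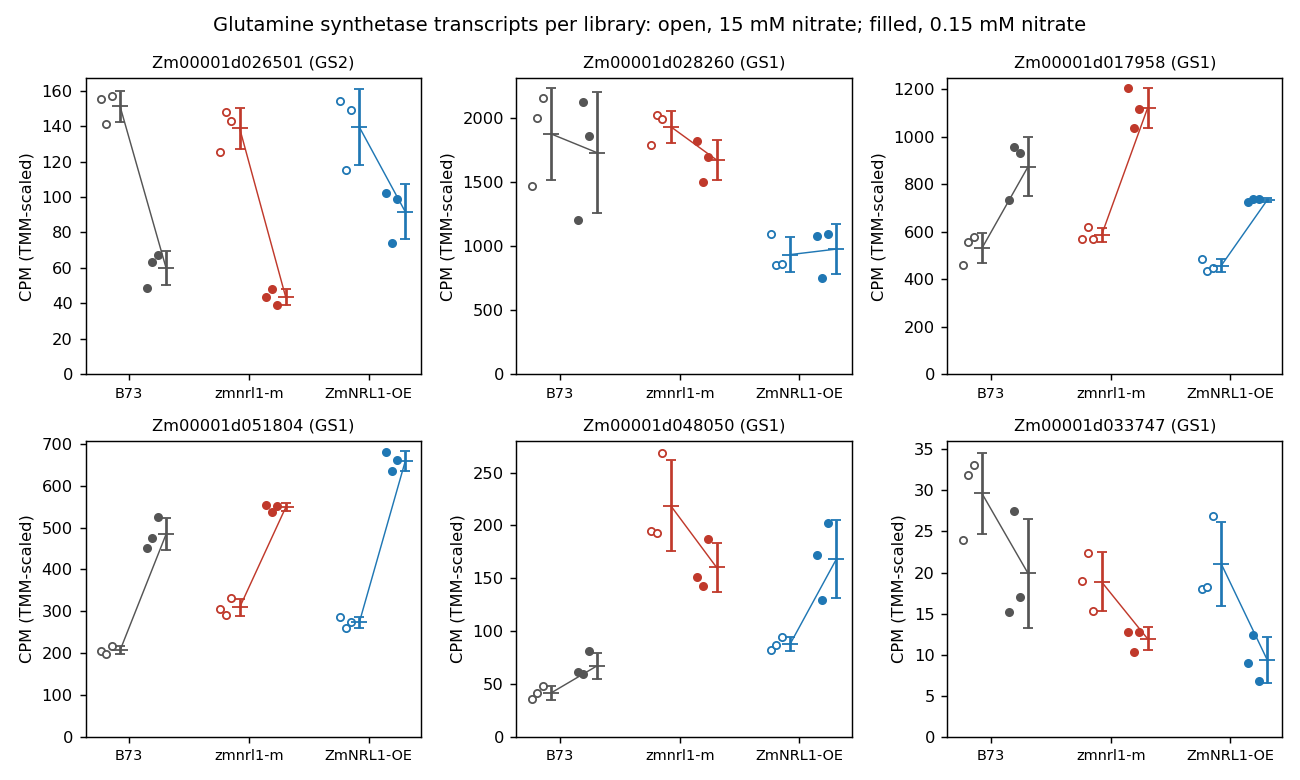
TMM-scaled CPM of the 6 genes in every library, with open points for 15 mM and filled points for 0.15 mM nitrate, bars for the mean ± SD of 3 libraries and lines between the means of a genotype. GS2 slopes down in all genotypes, Zm00001d051804 and Zm00001d017958 slope up, and Zm00001d048050 slopes up in B73 and ZmNRL1-OE and down in zmnrl1-m.

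Counted over the family, 4 of 6 genes were called for nitrate in B73, 3 higher and 1 lower, where 14.7% of all tested genes were called, 9.24% higher and 5.49% lower. In zmnrl1-m 3 of 6 were called, 2 higher and 1 lower, against a background of 17.9%, with 8.89% higher and 8.97% lower. ZmNRL1-OE had 5 of 6 called, 3 higher and 2 lower, against 23.9%, with 10.8% higher and 13.1% lower. The members' log2 fold changes had a median size of 0.71 in B73, 0.75 in the mutant and 0.81 in the overexpression line, beside 0.21, 0.21 and 0.24 over all tested genes. Averaged over the 3 genotypes, GS2 and Zm00001d033747 were lower (log2 fold changes -1.20 ± 0.08 and -0.80 ± 0.14, SE) and Zm00001d051804, Zm00001d017958 and Zm00001d048050 higher (1.11 ± 0.05, 0.78 ± 0.06 and 0.39 ± 0.10). These 5 averages were called (edgeR adjusted p from 5.74e-11 to 0.00742), against 32.6% of all genes, 16.2% higher and 16.4% lower. The average of Zm00001d048050 joins fitted responses of opposite sign, of which the negative one, in zmnrl1-m, was not called.

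**Figure D4:**
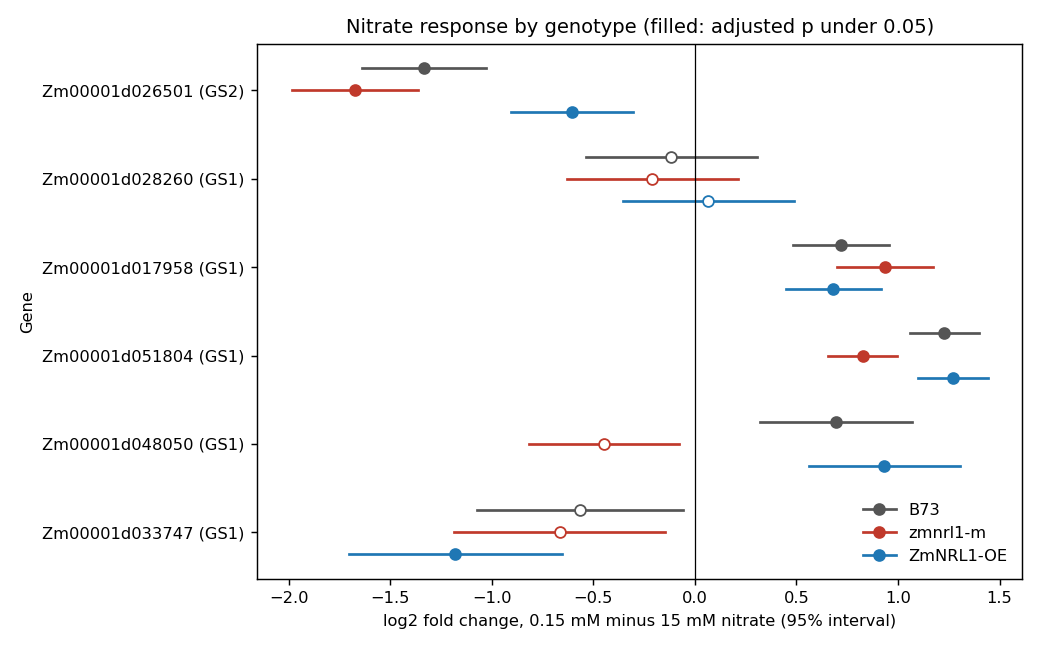
Log2 fold change of each gene between 0.15 mM and 15 mM nitrate in the 3 genotypes, with 95% intervals from the edgeR fit and filled points for adjusted p under 0.05. The points of Zm00001d048050 lie at 0.69 in B73, 0.93 in ZmNRL1-OE and -0.45 in zmnrl1-m, and those of GS2 at -1.33, -0.61 and -1.67.

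Whether the response differed between genotypes was tested as an interaction. The response of Zm00001d048050 in zmnrl1-m was lower than that in B73 by -1.14 ± 0.25 on the log2 scale (SE; edgeR adjusted p = 0.0172). For Zm00001d051804, which rose in both genotypes, the difference was -0.40 ± 0.11 (edgeR adjusted p = 0.0390), a call that 11 of the 23 alternatives lost (range of adjusted p 0.00165 to 0.0994). The omissions that ended it were, in B73, replicate 2 or 3 at low nitrate or any of the 3 at high nitrate, and, in zmnrl1-m, replicate 2 or 3 at either level. With these omissions 2.07% to 11% of all tested genes were called. The difference of Zm00001d051804 itself ran from -0.46 to -0.34 over the 23 alternatives. The call of Zm00001d048050 held in the same 23 (0.000724 to 0.0483). Of the 6 genes these 2 were called, both with the lower response in zmnrl1-m, where 8.93% of all genes were called, 3.84% higher and 5.1% lower.

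Between ZmNRL1-OE and B73 no member was called for a difference in response by edgeR or by DESeq2. Of all tested genes 0.0479% were called by edgeR, 0.0295% higher and 0.0184% lower. GS2 was the 1 member with an unadjusted p under 0.05, out of 1650 such genes, with a response higher in ZmNRL1-OE by 0.73 ± 0.20 on the log2 scale (SE; 95% interval 0.30 to 1.15; edgeR adjusted p = 0.392). The intervals of Zm00001d051804 and Zm00001d017958 ran from -0.20 to 0.28 and from -0.37 to 0.29.

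Between the ZmNRL1-OE and zmnrl1-m responses, 3 of 6 genes were called, all with the higher log2 fold change in ZmNRL1-OE, where 16.4% of all genes were called, 6.75% higher and 9.7% lower. Zm00001d048050 differed by 1.38 ± 0.25 and GS2 by 1.07 ± 0.20 on the log2 scale (SE; edgeR adjusted p = 0.00590 and 0.00701). For GS2 this was a smaller fall in ZmNRL1-OE. Zm00001d051804 differed by 0.44 ± 0.11 (edgeR adjusted p = 0.0181). The 3 comparisons of responses share libraries and are not independent.

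Set against B73, the largest difference of a member was that of Zm00001d048050 in zmnrl1-m. At high nitrate it stood at 219 ± 42.7 CPM in zmnrl1-m and 41.5 ± 6.21 CPM in B73, 5.27-fold higher, and at low nitrate at 160 ± 23.3 and 67.1 ± 12 CPM, 2.39-fold higher. The log2 fold changes were 2.40 ± 0.18 and 1.26 ± 0.18 (SE; edgeR adjusted p = 2.02e-08 and 2.58e-05). Zm00001d051804 was 1.5-fold higher at high nitrate (log2 fold change 0.58 ± 0.08, edgeR adjusted p = 1.96e-05) and not called at low nitrate (0.18 ± 0.08, edgeR adjusted p = 0.0783), where DESeq2 (adjusted p = 0.0229) and the fit without low-nitrate replicate 3 of B73 (0.0330) called it. Zm00001d028260, the dominant gene, was not called at either level, with 95% intervals of the log2 fold change from -0.38 to 0.46 at high and from -0.47 to 0.37 at low nitrate.

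Smaller differences between zmnrl1-m and B73 passed the threshold with all libraries and lost their calls when any of several single libraries was left out, with the sign kept. Zm00001d033747 was lower in zmnrl1-m at high and low nitrate, with log2 fold changes of -0.65 ± 0.24 and -0.75 ± 0.24 (SE; edgeR adjusted p = 0.0392 and 0.0203). The high-nitrate call was lost without high-nitrate replicate 2 or 3 of B73 or replicate 1 or 3 of zmnrl1-m, with values of -0.52 to -0.65 in these fits, and the low-nitrate value was -0.44 without low-nitrate replicate 2 of B73 (adjusted p = 0.166) and lost its call without replicate 2 of zmnrl1-m (0.0744). At low nitrate GS2 was lower by -0.46 ± 0.14 (edgeR adjusted p = 0.0155), a call lost without low-nitrate replicate 2 or 3 of B73 or replicate 3 of zmnrl1-m, where it was -0.37 to -0.42. Zm00001d017958 was higher by 0.36 ± 0.11 (edgeR adjusted p = 0.0145), a call lost without low-nitrate replicate 1 of B73 (0.25) or of zmnrl1-m (0.30) and with only the groups of the comparison in the fit (0.37, adjusted p = 0.0732). In all, 4 of 6 genes were called at low nitrate, 2 higher and 2 lower. Of all genes 44.8% were called, 22% higher and 22.8% lower. Without low-nitrate replicate 2 of B73 the count was 2, beside 38% of all genes. At high nitrate 3 of 6 were called, 2 higher and 1 lower, against 42.4%, with 21.6% higher and 20.8% lower, so neither share stands far from the background.

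In ZmNRL1-OE the dominant gene was lower than in B73. Zm00001d028260 stood at 1092, 849 and 860 CPM in ZmNRL1-OE against 1471, 2001 and 2156 CPM in B73 at high nitrate, and at 1078, 754 and 1097 CPM against 1205, 2127 and 1857 CPM at low nitrate. All libraries of ZmNRL1-OE were below all libraries of B73 at the same nitrate level, though at low nitrate replicate 1 of B73 came close. The gene was 2.01-fold lower at high and 1.77-fold lower at low nitrate, with log2 fold changes of -1.01 ± 0.20 and -0.82 ± 0.20 (SE; edgeR adjusted p = 0.00111 and 0.00431). With both B73 libraries numbered 1 left out, an alternative added once these levels were known, the values were -1.14 and -1.0.

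Zm00001d048050 and Zm00001d051804 were higher in ZmNRL1-OE than in B73 at either nitrate level. Zm00001d048050 was 2.12-fold higher at high and 2.50-fold higher at low nitrate (log2 fold changes 1.09 ± 0.18 and 1.32 ± 0.18, SE; edgeR adjusted p = 0.000186 and 2.35e-05). Zm00001d051804 was 1.32-fold and 1.36-fold higher (0.40 ± 0.08 and 0.45 ± 0.08; edgeR adjusted p = 0.00102 and 0.000386). At low nitrate GS2 was also higher, by 0.61 ± 0.14, and Zm00001d033747 lower, by -1.10 ± 0.25 (edgeR adjusted p = 0.00336 and 0.00251), and neither was called at high nitrate, where the log2 fold changes were -0.12 ± 0.14 and -0.49 ± 0.24 (edgeR adjusted p = 0.601 and 0.144). Zm00001d017958 was called at neither level, with -0.25 ± 0.11 at low and -0.22 ± 0.11 at high nitrate (edgeR adjusted p = 0.0894 and 0.169). It was called at low nitrate without low-nitrate replicate 1 of B73 (adjusted p = 0.0153). At low nitrate 5 of 6 genes were called, 3 higher and 2 lower, against 34.8% of all genes, 16.1% higher and 18.7% lower, and at high nitrate 3 of 6, 2 higher and 1 lower, against 27.2%, with 14.6% higher and 12.6% lower.

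**Figure D5:**
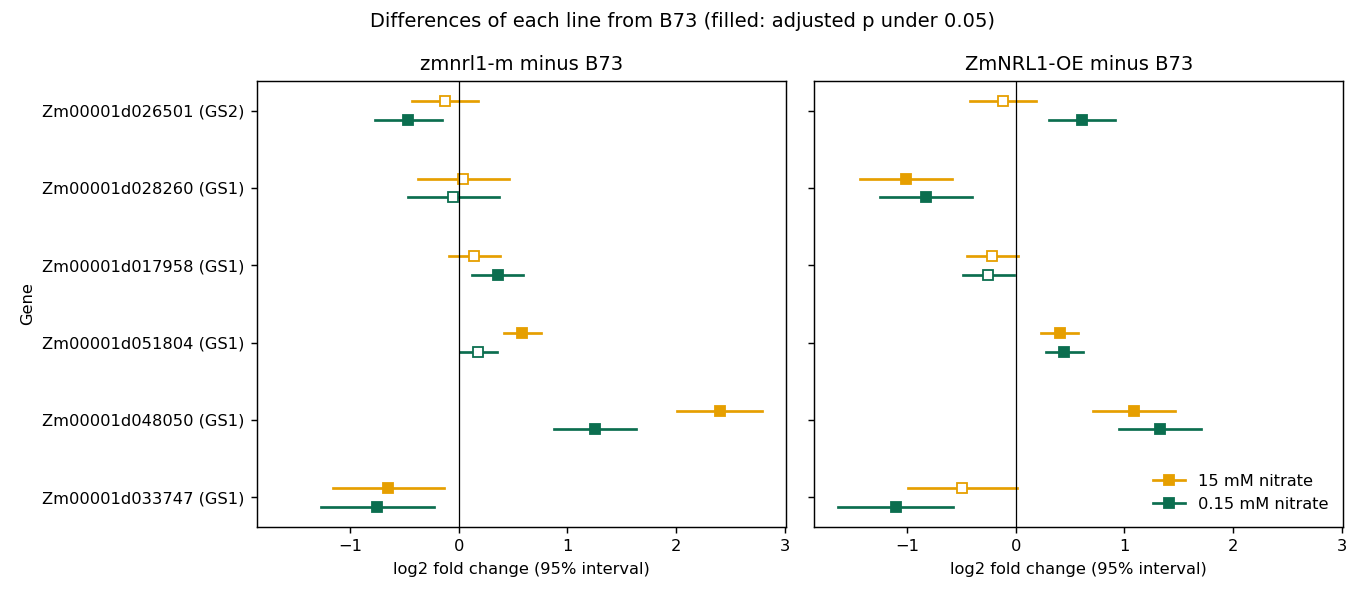
Log2 fold change of each gene in zmnrl1-m and in ZmNRL1-OE against B73 at 15 mM and 0.15 mM nitrate, with 95% intervals and filled squares for adjusted p under 0.05. Zm00001d048050 lies to the right of 0 in both lines, at 2.40 and 1.26 in the mutant and at 1.09 and 1.32 in the overexpression line, while Zm00001d028260 lies near 0 in zmnrl1-m and at -1.01 and -0.82 in ZmNRL1-OE.

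The lines also differed from each other. At high nitrate Zm00001d048050 and Zm00001d028260 were lower in ZmNRL1-OE than in zmnrl1-m, by 2.48-fold and 2.07-fold (log2 fold changes -1.31 ± 0.18 and -1.05 ± 0.20, SE; edgeR adjusted p = 1.44e-05 and 0.000470). Zm00001d017958 was lower by 1.28-fold (-0.36 ± 0.11; edgeR adjusted p = 0.0155), a call lost without high-nitrate replicate 2 of zmnrl1-m or high-nitrate replicate 2 or 3 of ZmNRL1-OE. At low nitrate GS2 was 2.11-fold higher in ZmNRL1-OE (1.08 ± 0.14; edgeR adjusted p = 1.16e-05) and Zm00001d051804 1.20-fold higher (0.27 ± 0.08; edgeR adjusted p = 0.00904), while Zm00001d028260 and Zm00001d017958 were lower (-0.78 ± 0.20 and -0.61 ± 0.11; edgeR adjusted p = 0.00343 and 0.000210). Zm00001d048050 did not differ beyond its spread at low nitrate (0.07 ± 0.17; edgeR adjusted p = 0.754). Called were 3 of 6 genes at high nitrate, all lower, against 41.6% of all genes, 21% higher and 20.6% lower, and 4 of 6 at low nitrate, 2 in each direction, against 57.9%, with 27.3% higher and 30.6% lower.

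The genes with the most similar patterns were sought for GS2 and for Zm00001d028260 among 18968 tested genes with a mean of at least 5 CPM. Likeness was the root mean square difference of log2 CPM over the 18 libraries, each gene centred on its own mean. For GS2 the nearest were Zm00001d015702 (0.227) and Zm00001d049187 (0.229), where the median gene was 0.744 away and GS2 itself had a spread of 0.698. Zm00001d049187 stood at 358 CPM with high and 110 CPM with low nitrate in B73, and Zm00001d015702 at 193 and 106 CPM. For Zm00001d028260 the nearest were Zm00001d014243 (0.190) and Zm00001d006251 (0.194), against a median of 0.530 and a spread of 0.489. Within the family the closest pair, Zm00001d017958 and Zm00001d051804, differed by 0.376. The nearest of 18968 genes is likely to lie closer than the nearest of a few family members. These distances are therefore a description only.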

How the data were processed

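RNA-seq of 18 maize root libraries was analysed from the raw read counts per gene that the authors deposited. The authors also deposited FPKM values, normalised for gene length and library size. Per the submitters' processing notes, bcl2fastq 2.19.1, Trim Galore 1.18, HISAT2 2.2.1, featureCounts 2.0.1 and the build B73 RefGen_v4 were used. Neither the strand setting nor the handling of multi-mapped reads is given in these sources. Reads could be split among similar GS1 genes, so counts of these paralogs are uncertain. Library totals were 21905877 to 39003607 counts.

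Genes were filtered with filterByExpr (minimum count 10, the 6 groups), which left 27134 genes, and scaled by TMM. A mean per group was fitted to all 18 libraries with edgeR 4.0.16 in R 4.3.3 (glmQLFit, glmQLFTest, 12 residual degrees of freedom) for 13 contrasts. A gene is called at a Benjamini-Hochberg adjusted p under 0.05 over all tested genes. Standard errors are the absolute log2 fold change divided by the root of F. The 95% intervals are built from them with the total degrees of freedom of the test, 16.28 for the members. The script was tested on simulated data. Alternatives used DESeq2 1.42.0 and limma 3.58.1 on log2(FPKM + pseudocount 1 or 0.1), other scalings and filters, the replicate number as a block, the groups of a comparison alone, and each library left out in turn.

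Between replicates of a group, chi-square over its degrees of freedom was 7.8 to 25.6, so none was taken for a duplicate. Same-numbered libraries of the B73 groups at low and high nitrate deviated together (r = 0.415, 0.122 and 0.261 across genes). Every number was above the limit of 0.1, so these numbers were read as pairs, from the data and not the labels. Of the 6 B73 libraries, 5 correlated best with their own number. The main fit does not hold the replicate number, so its B73 tests are unpaired. The block, fitted as a shared effect over all 18 libraries, changed no call of a member in the B73 response. No fit paired the B73 libraries alone, so what pairing within B73 would change was not tested. No other pair of groups met that limit.

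A RefSeq table of another assembly (49888 genes) held none of the identifiers, so no names, positions, sequences, tissue markers or other genes of nitrogen assimilation are given. The members, lists and tests were chosen with earlier results of these data known. Named genes are the 6 members and, by a fixed rule, the 2 genes most like GS2 and the 2 most like the GS1 gene with the highest mean FPKM.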

Additional observations from a re-analysis of the deposited data

Results flagged for a closer look

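By the interaction test of edgeR, 3 members were called for a different nitrate response in at least 1 comparison of genotypes. In zmnrl1-m the log2 response was lower than in B73 by -1.14 for Zm00001d048050 (adjusted p = 0.0172) and by -0.40 for Zm00001d051804 (adjusted p = 0.0390). The call of Zm00001d051804 was lost under 11 of 23 alternatives. Of all tested genes 8.93% were called in this comparison. In ZmNRL1-OE the log2 response was higher than in zmnrl1-m by 1.07 for Zm00001d026501 (GS2, adjusted p = 0.00701), 1.38 for Zm00001d048050 (adjusted p = 0.00590) and 0.44 for Zm00001d051804 (adjusted p = 0.0181). Here 16.4% of all tested genes were called. For Zm00001d048050 the 3 libraries at low nitrate were above those at high nitrate in B73 and ZmNRL1-OE and below them in zmnrl1-m. The fall in zmnrl1-m was not called (log2 fold change -0.45, edgeR adjusted p = 0.0864). Its highest low-nitrate library had 186.7 CPM and its lowest high-nitrate library 193.1 CPM. How many of all tested genes separate in this way was not counted. The zmnrl1-m libraries enter both sets of differences.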

How the results depend on the processing

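Of 44 calls over the 6 genes and 13 contrasts, 37 held under every alternative run, 7 were lost under at least 1, and none changed sign. The contrasts share groups, so these calls are not independent. For the zmnrl1-m response minus that of B73, the count of called members fell from 2 to 1 without a filter on low counts and with only the groups of the comparison in the fit. The share of all genes called went from 8.93% to 5.84% and 7.35%. When single libraries were omitted, the count lay between 1 and 2, beside 2.07% to 12.3% of all genes. For zmnrl1-m minus B73 at low nitrate such omissions gave 2 to 4, beside 36.2% to 41.5% of all genes. These losses came with fewer samples or another set of genes and samples in the fit. With the replicate number as a block 4 members were called for nitrate in zmnrl1-m, beside 15.9% of all genes. The added one was Zm00001d048050 at -0.44, and no other count of called members changed. In zmnrl1-m the libraries share only a number, and 3 of 6 correlated best with their own number.

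Signs turned in 13 uncalled values, with the cause not tested beyond the smaller number of libraries. With 1 library left out, Zm00001d028260 ranged from -0.29 to 0.086 and from -0.012 to 0.25 for nitrate in B73 and ZmNRL1-OE, from -0.25 to 0.13 and from -0.10 to 0.15 for zmnrl1-m minus B73 at low and high nitrate, and from -0.30 to 0.084 and from -0.021 to 0.36 for the zmnrl1-m and ZmNRL1-OE responses minus that of B73. Without both B73 libraries numbered 1 its high-nitrate difference in zmnrl1-m was -0.093. GS2 (Zm00001d026501) in ZmNRL1-OE at high nitrate ranged from -0.17 to 0.015 against B73 and from -0.059 to 0.13 against zmnrl1-m, where Zm00001d033747 ranged from -0.051 to 0.30. Zm00001d048050 ranged from -0.055 to 0.26 for ZmNRL1-OE minus zmnrl1-m at low nitrate, and Zm00001d033747 from -0.26 to 0.21 for the zmnrl1-m response minus that of B73. For the ZmNRL1-OE response minus that of B73, Zm00001d017958 ranged from -0.15 to 0.056 and gave 0.0086 with only those groups in the fit, and Zm00001d051804 ranged from -0.0077 to 0.10.

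Library totals in place of TMM moved the median of all genes by 0.114 (log2) for ZmNRL1-OE minus zmnrl1-m at low nitrate, with no change in called members. Without both B73 libraries numbered 1, added after the data had been examined, Zm00001d048050 lost its call for nitrate in B73 (adjusted p = 0.0604) and Zm00001d017958 was called lower in ZmNRL1-OE at low and high nitrate (0.0113 and 0.0282).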

Other observations

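The ratio of the 2 GS1 genes with the next-highest mean FPKM after Zm00001d028260 is given here as a description, with no test. Per unit of length, Zm00001d051804 was at 0.484 ± 0.0602 of the level of Zm00001d017958 in B73 at high and 0.688 ± 0.0729 at low nitrate (SD, n = 3). The ratio was 0.652 ± 0.0705 and 0.604 ± 0.036 in zmnrl1-m, with overlap, and 0.737 ± 0.0128 and 1.11 ± 0.0487 in ZmNRL1-OE, without. At low nitrate the B73 libraries (0.613 to 0.758) and those of zmnrl1-m (0.566 to 0.637) overlapped. The 6 genes together took 0.195% ± 0.016 of all counts in ZmNRL1-OE at high nitrate and 0.346% ± 0.0185 in zmnrl1-m at low nitrate, the lowest and highest of the 6 group means.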
